A study of Homo sapiens with 16 samples.

Results

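The replication-dependent histone genes are the clustered genes that encode histones H1, H2A, H2B, H3 and H4. They were chosen by symbol (H1-1 to H1-6, H2AC, H2BC, H3C and H4C genes and their older HIST names). The rule uses no treatment values, but it was set with earlier results of these data known. Of 71 protein-coding genes with such a symbol, 43 have a probe set that lists that gene alone, and these 43 of the 19775 genes measured are described here. They comprise 6 H1, 8 H2A, 13 H2B, 8 H3 and 8 H4 genes, with 40 on chromosome 6 and 3 on chromosome 1. Of their probe sets 33 have plain names, 4 carry the suffix _s (H2AC6, H2BC21, H3C2 and H4C8) and 6 the suffix _x (H2BC5 among them). Whether a probe set with a suffix also reads related histone genes was not tested. A further 19 genes appear only in probe sets shared by several genes, and 9 are in none of the probe sets listed.

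RNA came from MIA PaCa-2, an established pancreatic cancer cell line, in 4 groups of 4 arrays: polysome RNA of cells given 2.5 µM PP242, polysome RNA of cells given DMSO vehicle, cytosolic RNA of PP242-treated cells, and cytosolic RNA of vehicle-treated cells, all after 12 hours. PP242 inhibits the mTOR kinase, which controls growth and protein synthesis. Polysome RNA is the gradient material with more than 3 ribosomes per mRNA. Nothing in the labels says whether each replicate was grown on its own, so the p-values measure only the spread between these samples, and the 4 arrays a group limit the precision. Of 5 epithelial markers 3 lay above the median gene in at least 1 group, as did 2 of 4 fibroblast and 1 of 3 endothelial markers, and 0 of 3 leukocyte, 0 of 2 acinar and 0 of 2 islet markers. The cytosolic PP242 arrays scattered most, with a median SD per gene of 0.24, against 0.12 in the cytosolic vehicle arrays.

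Clustered histone mRNAs carry the bulk histones that package newly copied DNA, and they are made mainly during S phase. Most of them end in a stem-loop instead of a poly(A) tail, and the stem-loop binding protein SLBP guides their processing, export, translation and decay. The labelling kit primes on poly(A). A few of these genes, with H2AC6, H2BC5, H2BC12 and H2BC21 among them, are known also to give polyadenylated transcripts, chiefly in cells that leave the cell cycle. How much of each signal comes from stem-loop histone mRNA was not tested. A fall or rise below is a change in signal relative to the other RNAs of the same pool. In bulk samples, fewer cells in S phase and less histone RNA per cell cannot be told apart.

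Promoters are shown for a pair of genes with higher signal after PP242 (H2AC6 and H2BC21) and a pair with lower polysome signal (H3C2, which fell in both pools, and H1-2, which did not pass in the cytosol), to set promoter elements of genes that moved in opposite directions on polysomes side by side. Each is the 250 bases before the RefSeq start on GRCh38.p14, written 5′ to 3′ on the gene's strand. Capitals mark matches on either strand to 4 motifs. They are the TATA box, searched as TATAAA, the CCAAT box, searched by its name, the octamer of H2A and H2B promoters, searched as ATTTGCAT, and the H1 box of linker histone promoters, searched as AAACACA.
H2AC6 promoter, chr6:26123922-26124171, plus strand: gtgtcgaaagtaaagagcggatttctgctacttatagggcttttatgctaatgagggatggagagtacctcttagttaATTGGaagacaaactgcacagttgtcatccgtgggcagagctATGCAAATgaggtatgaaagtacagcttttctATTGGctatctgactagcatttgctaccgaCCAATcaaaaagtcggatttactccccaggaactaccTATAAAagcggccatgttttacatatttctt
H2BC21 promoter, chr1:149886683-149886932, minus strand: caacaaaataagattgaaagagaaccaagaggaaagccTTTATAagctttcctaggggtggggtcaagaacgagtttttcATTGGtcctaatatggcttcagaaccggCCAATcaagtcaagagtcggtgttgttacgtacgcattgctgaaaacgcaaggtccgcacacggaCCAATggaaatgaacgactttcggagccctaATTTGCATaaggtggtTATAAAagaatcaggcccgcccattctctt
H3C2 promoter, chr6:26032100-26032349, minus strand: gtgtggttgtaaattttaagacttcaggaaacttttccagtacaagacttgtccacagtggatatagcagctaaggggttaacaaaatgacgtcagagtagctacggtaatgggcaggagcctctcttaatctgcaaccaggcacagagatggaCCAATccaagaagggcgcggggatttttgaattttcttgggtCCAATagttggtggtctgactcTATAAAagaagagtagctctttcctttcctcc
H1-2 promoter, chr6:26056471-26056720, minus strand: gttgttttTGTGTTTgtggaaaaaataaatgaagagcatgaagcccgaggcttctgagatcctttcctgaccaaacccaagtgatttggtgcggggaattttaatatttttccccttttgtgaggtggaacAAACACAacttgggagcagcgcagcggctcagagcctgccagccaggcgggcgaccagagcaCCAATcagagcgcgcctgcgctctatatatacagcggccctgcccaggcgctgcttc
Of the 43 genes 41 matched a RefSeq promoter. TATAAA was found in 28 of the 41 (68.3%), against 11.1% of all 27305 promoters of this length, and CCAAT in 36 (87.8%), against 33.0% of all promoters. ATTTGCAT was found in 6 of 8 H2A and 10 of 13 H2B promoters and in none of the 20 H1, H3 and H4 promoters, against 1.7% of all promoters. Of the 5 genes higher in both pools with the replicate number as a block (described below) 3 hold ATTTGCAT, and of the 4 lower in both pools 1 does, H2AC16. The 5 higher genes are all H2A or H2B genes, and of the 4 lower ones H2AC16 alone is. Direction and family therefore cannot be told apart in these counts. The promoters printed also differ by family. AAACACA was found in 6 of 6 H1 promoters and in none of the others, against 4.9% of all promoters. The 4 motifs do not overlap in letters in the promoters printed.

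Most histone probe sets read in the lower part of the array's signal range. Signals of different probe sets also depend on the probes, so this places them within the scale and is no comparison of RNA amounts. The median histone gene read 4.28 in polysome PP242 and 4.36 in polysome vehicle arrays (log2 RMA signal), where the median of all genes was 5.775 and 5.73. In cytosolic RNA it read 4.83 with PP242 and 4.93 with vehicle, where the median of all genes was 6.10 and 6.05. From 9 to 12 of the 43 genes reached the median gene in any one group.

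With PP242 a few H2A and H2B genes were higher on polysomes, at a share close to that of all genes. Genes of H1, H2A, H3 and H4 were lower. In polysome RNA 9 of 43 histone genes passed limma's test at an adjusted p under 0.05, which is 20.9%, where 13.4% of all genes passed. Of these 3 were higher (H2AC25, H2AC6 and H2BC21, against 6.81% of all genes) and 6 were lower (H3C2, H1-2, H2AC16, H4C4, H1-3 and H1-4, against 6.55% of all genes). The median histone gene showed a log2 difference of -0.105, and the median of all genes -0.005. In cytosolic RNA 10 of 43 passed, which is 23.3%, where 16.5% of all genes passed. Of these 4 were higher (H2AC25, H2AC6, H2BC21 and H4C9, against 8.54% of all genes) and 6 were lower (H3C2, H1-3, H4C4, H3C3, H2AC16 and H3C6, against 7.91% of all genes). The cytosolic median was -0.015, and 0.04 for all genes. The genes called in both pools were 3 higher (H2AC25, H2AC6 and H2BC21) and 4 lower (H3C2, H2AC16, H4C4 and H1-3), with none called in opposite directions. Without any test, the PP242 and vehicle arrays did not overlap in 3 genes higher and 7 lower on polysomes (9.48% and 9.86% of all genes), and in 2 higher and 4 lower in the cytosol (9.34% and 8.34%).

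**Figure D1:**
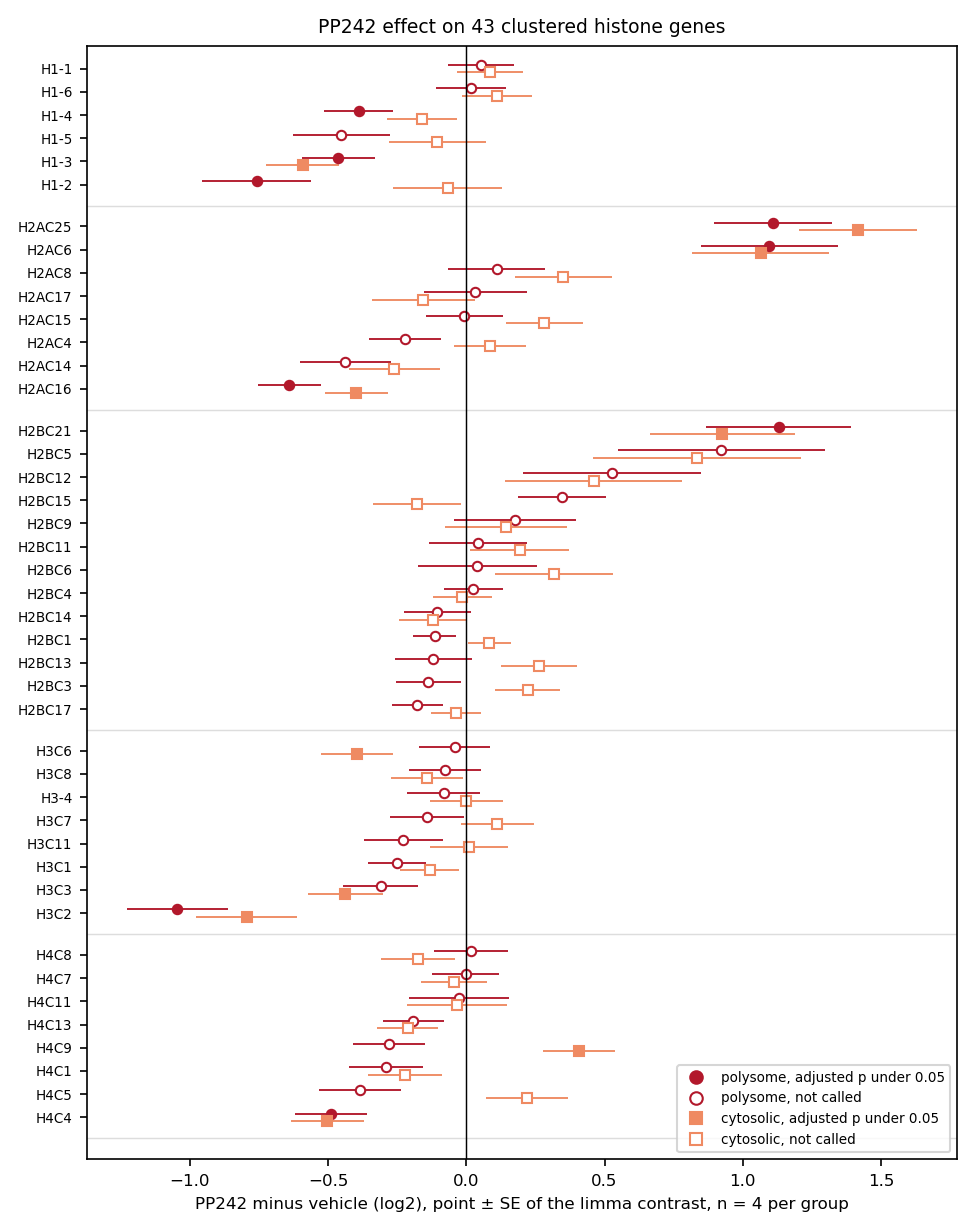
Log2 difference of PP242 minus vehicle (x axis, point ± SE of the limma contrast, n = 4 per group) for each of the 43 histone genes (y axis), by family, in polysome RNA (circles) and cytosolic RNA (squares). Filled points passed an adjusted p under 0.05 in the fit without the replicate block. The genes furthest to the right are all H2A or H2B genes, led by H2AC25 at 1.42 in cytosolic RNA, and H3C2 is furthest to the left at -1.045 in polysome RNA.

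Arrays with the same replicate number deviated together, so the test was also run with the number as a block. Polysome calls then came to 5 higher (against 10.6% of all genes) and 9 lower (against 9.72%), with 20.3% of all genes called in either direction. Cytosolic calls came to 6 higher (against 13.9%) and 6 lower (against 11.0%), with 24.9% of all genes called in either direction. H2BC5 and H2BC12 joined the higher genes in both pools, and H1-5, H2AC14 and H4C5 joined the lower genes of polysome RNA. The histone genes called without the block in either pool were also called with it.

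H2AC25 encodes a core H2A and rose in both pools. Its signal was 9.32, 9.25, 8.70 and 9.08 in polysome PP242 arrays, against 8.18, 8.15, 7.62 and 7.96 in polysome vehicle arrays. Every PP242 array lay above every vehicle array, by 1.11 ± 0.21 on the log2 scale (2.16-fold, adjusted p = 0.00134). In the cytosol it was 9.15, 9.65, 8.36 and 9.11 with PP242, against 7.76, 7.88, 7.37 and 7.59 with vehicle. The groups again did not overlap, and the difference was 1.42 ± 0.21 (2.67-fold, adjusted p = 1.29e-04). A second, dim probe set of the gene showed 0.08 ± 0.10 and 0.115 ± 0.10 in a fit over all probe sets and did not pass.

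H2AC6 is another H2A gene, in the large cluster of chromosome 6. It had 7.54, 7.63, 6.83 and 6.85 in polysome PP242 arrays, against 6.46, 6.40, 5.67 and 5.94 in polysome vehicle arrays. In cytosolic RNA it had 7.59, 7.66, 6.68 and 6.99 with PP242, against 6.48, 6.44, 5.93 and 5.81 with vehicle. The groups did not overlap in either pool, and the rises were 1.095 ± 0.25 (2.14-fold, adjusted p = 0.00499) on polysomes and 1.065 ± 0.25 (2.09-fold, adjusted p = 0.00571) in the cytosol. Without the 2 noisiest cytosolic PP242 arrays the cytosolic call was lost in the fit without the block (adjusted p = 0.0555). With the block on all arrays limma gave adjusted p = 3.47e-07 on polysomes and 4.68e-07 in the cytosol.

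H2BC21 encodes an H2B on chromosome 1. Its polysome signal was 4.47, 4.67, 4.78 and 4.47 with PP242, against 3.52, 3.49, 3.49 and 3.37 with vehicle. The replicates were tight and far apart, with a rise of 1.13 ± 0.26 (2.19-fold, adjusted p = 0.0059). Its cytosolic signal was 6.21, 6.52, 5.24 and 4.91 with PP242, against 5.19, 5.08, 4.37 and 4.54 with vehicle. Here PP242 arrays 1 and 2 were high and array 4 lay below vehicle arrays 1 and 2, and the rise of 0.925 ± 0.26 (adjusted p = 0.02) was not called without replicate 1 (0.0723) or 2 (0.116).

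**Figure D2:**
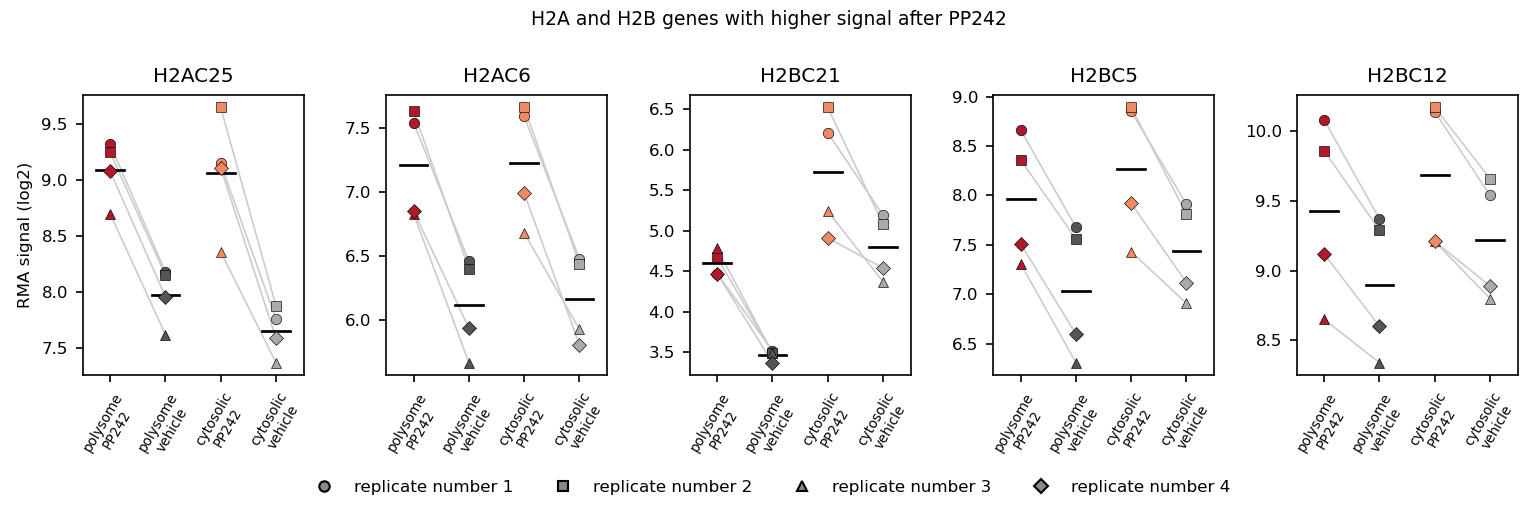
RMA signal (y axis, log2) of H2AC25, H2AC6, H2BC21, H2BC5 and H2BC12 in each of the 16 arrays, by group (x axis). Marker shapes give the replicate number, grey lines join arrays of the same number within a pool, and black bars are means of 4 arrays. On every line the PP242 array is the higher one, and each panel has its own y range.

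H2BC5 and H2BC12 are H2B genes of the chromosome 6 cluster. H2BC5 had 8.66, 8.36, 7.31 and 7.51 in polysome PP242 arrays, against 7.68, 7.56, 6.31 and 6.60 in polysome vehicle arrays. It had 8.85, 8.89, 7.43 and 7.92 in cytosolic PP242 arrays, against 7.91, 7.81, 6.91 and 7.12 in cytosolic vehicle arrays. The groups overlapped, and numbers 1 and 2 lay above 3 and 4 in every group. Each PP242 array exceeded the vehicle array of its number, by 0.80 to 1.00 on polysomes and 0.52 to 1.08 in the cytosol. Without the block the differences of 0.92 ± 0.38 and 0.835 ± 0.38 did not pass (adjusted p = 0.126 and 0.142), and with it they did (3.79e-06 and 1.11e-05). A second probe set of H2BC5 showed 0.255 ± 0.26 and 0.36 ± 0.26 and passed in neither pool.

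H2BC12 had 10.08, 9.86, 8.65 and 9.12 in polysome PP242 arrays, against 9.37, 9.29, 8.34 and 8.60 in polysome vehicle arrays. It had 10.14, 10.17, 9.21 and 9.21 in cytosolic PP242 arrays, against 9.54, 9.66, 8.80 and 8.89 in cytosolic vehicle arrays. Each same-numbered pair was again higher with PP242, by 0.31 to 0.71 on polysomes and 0.32 to 0.60 in the cytosol, and the groups overlapped. The differences of 0.53 ± 0.32 and 0.46 ± 0.32 passed only with the block (adjusted p = 0.00106 and 0.00305, against 0.362 and 0.361 without it). In 7 histone genes (H2BC5, H2BC12, H2AC6, H2BC9, H2BC6, H2AC17 and H2AC25) numbers 1 and 2 lay above 3 and 4 in each of the 4 groups. The share of all genes so separated is not given. The mean gap was 1.08 in H2BC5 and 0.91 in H2BC12. Over all genes its median was 0.025, and its 5th and 95th percentiles were -0.2975 and 0.38. The part of this difference between numbers in the PP242 results was not tested beyond the block and the same-numbered pairs.

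H3C2, which encodes the canonical H3, showed the largest fall among the 43 genes on polysomes. Its signal was 2.96, 3.04, 3.36 and 3.45 in polysome PP242 arrays, against 4.19, 4.10, 4.32 and 4.38 in polysome vehicle arrays. The groups lay apart and the fall was -1.045 ± 0.18 (2.06-fold down, adjusted p = 5.84e-04). In the cytosol it was 4.51, 3.88, 3.73 and 4.42 with PP242, against 4.55, 4.71, 5.16 and 5.30 with vehicle. These groups did not overlap either, but the cytosolic difference of -0.795 ± 0.18 (adjusted p = 0.00537) was only -0.04 in number 1 and was not called without replicate 3 (0.065).

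H2AC16, an H2A gene, fell in both pools at low signal. It had 3.34, 3.68, 3.45 and 3.47 in polysome PP242 arrays, against 4.10, 4.32, 4.13 and 3.95 in polysome vehicle arrays, a difference of -0.64 ± 0.11 (adjusted p = 6.88e-04). It had 3.71, 4.01, 3.50 and 3.55 in cytosolic PP242 arrays, against 4.04, 4.06, 4.14 and 4.12 in cytosolic vehicle arrays, a difference of -0.40 ± 0.11 (adjusted p = 0.0221). Neither pair of groups overlapped. The cytosolic call was lost without replicate 1 (0.0743), 3 (0.142) or 4 (0.157).

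H4C4, one of many genes for the same H4 protein, had 3.85, 3.77, 4.02 and 3.84 in polysome PP242 arrays, against 4.44, 4.21, 4.47 and 4.32 in polysome vehicle arrays. It had 3.86, 3.27, 3.41 and 3.96 in cytosolic PP242 arrays, against 4.01, 4.16, 4.25 and 4.09 in cytosolic vehicle arrays. The groups did not overlap, with -0.49 ± 0.13 (adjusted p = 0.0162) on polysomes and -0.50 ± 0.13 (adjusted p = 0.0126) in the cytosol. The polysome call was lost without replicate 1 (0.0972) or 3 (0.0553) and the cytosolic call without replicate 2 (0.13) or 3 (0.0993).

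Linker histones of the H1 family bind DNA between nucleosomes. H1-3 had 4.89, 4.83, 4.69 and 4.99 in polysome PP242 arrays, against 5.52, 4.91, 5.47 and 5.35 in polysome vehicle arrays, where vehicle array 2 lay among the PP242 arrays. In the cytosol H1-3 had 4.85, 4.64, 4.44 and 4.48 with PP242, against 5.23, 5.13, 5.32 and 5.10 with vehicle, with no overlap. It fell by 0.46 ± 0.13 on polysomes (adjusted p = 0.023) and by 0.59 ± 0.13 in the cytosol (adjusted p = 0.00397), and the polysome call was lost without replicate 1 (0.125), 3 (0.205) or 4 (0.0698).

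H1-2, another linker histone gene, changed on polysomes. Its polysome signal was 6.96, 6.91, 6.68 and 6.75 with PP242, against 8.08, 7.45, 7.30 and 7.50 with vehicle, which lay fully above. Its cytosolic signal was 7.29, 7.73, 6.65 and 7.45 with PP242, against 7.43, 7.60, 7.25 and 7.11 with vehicle, which overlapped widely. The differences were -0.76 ± 0.20 on polysomes (adjusted p = 0.0134, lost without replicate 1 at 0.106 or 4 at 0.0707) and -0.07 ± 0.20 in the cytosol (adjusted p = 0.854). The test of their difference gave -0.69 ± 0.28 and did not pass (adjusted p = 0.558). H1-4 followed on polysomes with -0.39 ± 0.13 (adjusted p = 0.0457), a call lost without replicate 1 (0.29), 2 (0.109) or 3 (0.185).

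**Figure D3:**
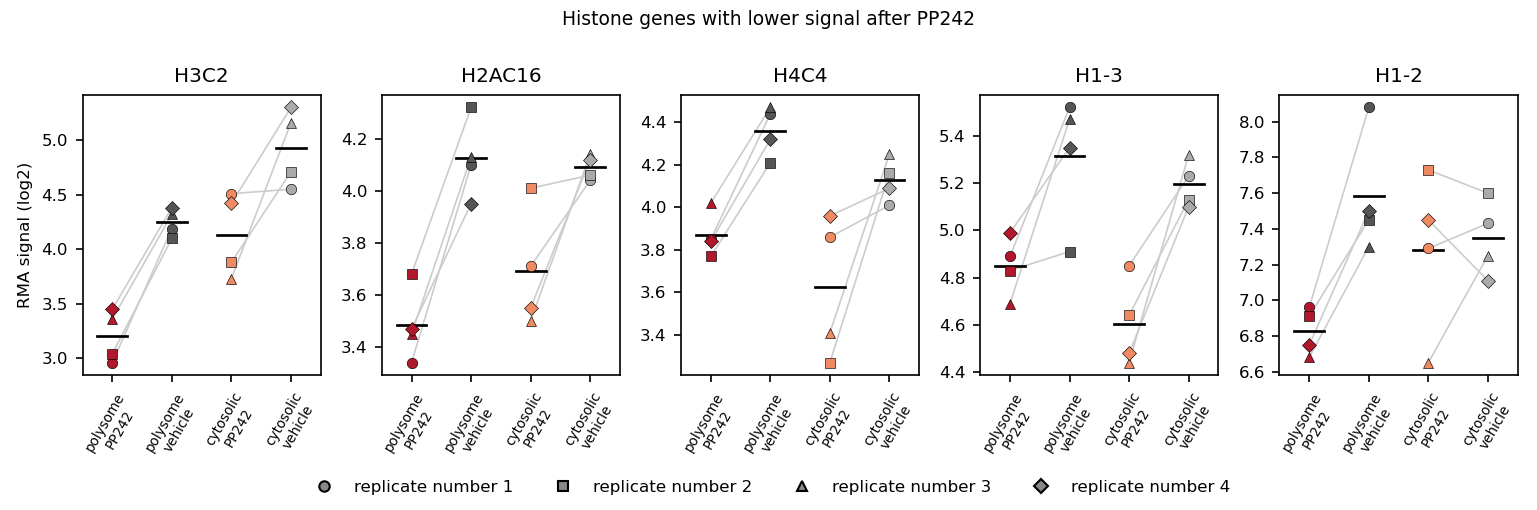
RMA signal (y axis, log2) of H3C2, H2AC16, H4C4, H1-3 and H1-2 in each of the 16 arrays, by group (x axis). Marker shapes give the replicate number, grey lines join arrays of the same number within a pool, and black bars are means of 4 arrays. The polysome groups are apart in all panels but that of H1-3, the cytosolic groups of H1-2 overlap, and each panel has its own y range.

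By family, of 6 H1 genes 3 fell on polysomes (H1-2, H1-3 and H1-4) and 1 in the cytosol (H1-3). Of 8 H2A genes 2 rose and 1 fell in each pool. Of 13 H2B genes 1 rose in each pool, or 3 with the block, and none fell. Of 8 H3 genes 1 fell on polysomes (H3C2) and 3 in the cytosol (H3C2, H3C3 and H3C6). Of 8 H4 genes 1 fell in each pool (H4C4) and H4C9 rose in the cytosol. With the block 4 H1 (with H1-5), 2 H2A (with H2AC14) and 2 H4 genes (with H4C5) fell on polysomes. Over all genes 6.81% rose and 6.55% fell on polysomes, and 8.54% and 7.91% in the cytosol. No test of a difference between families was made.

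H4C9, H3C3 and H3C6 were called in the cytosol alone. H4C9 showed 0.41 ± 0.13 (adjusted p = 0.0378), lost without replicate 1 (0.133), 2 (0.165) or 4 (0.261), under cyclic loess between arrays (0.0522) and without the 2 noisiest arrays (0.438). H3C3 showed -0.44 ± 0.14 (adjusted p = 0.0328), lost without replicate 1 (0.0537), 2 (0.137) or 4 (0.171). H3C6 showed -0.395 ± 0.13 (adjusted p = 0.0436), lost whichever replicate was left out (0.0603 to 0.196), and its second probe set moved the other way at 0.35 ± 0.13. H3C3 and H3C6 encode the canonical H3 and H4C9 the common H4.

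Genes with opposite results lie side by side on chromosome 6. In RefSeq order H2BC4, H2AC6, H1-4, H2BC5, H2BC6 and H4C4 are consecutive protein-coding genes. H2AC6 rose in both pools, H2BC5 rose in both with the block, H4C4 fell in both and H1-4 fell on polysomes. H2BC4, which is transcribed away from H2AC6 on the opposite strand, showed 0.025 ± 0.11 on polysomes and -0.015 ± 0.11 in the cytosol at a mean signal of 3.28 and 3.25 in polysome PP242 and polysome vehicle arrays. H2BC6 showed 0.04 ± 0.21 and 0.32 ± 0.21, and neither H2BC4 nor H2BC6 passed.

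Calls from the fit without the block were also counted by signal level. In the cytosol, of the 11 histone genes whose mean reached that of the median gene, 3 were higher and 0 lower, with a median difference of 0.32, where 12.9% and 14.1% of all genes at that level were called. Of the 32 below it 1 was higher, 6 were lower and the median was -0.04, where 4.19% and 1.7% of all genes at that level were called. On polysomes the brighter genes gave 2 higher and 1 lower, where 10.6% and 12.2% of all genes at that level were called, and the dimmer ones 1 higher and 5 lower, where 3.04% and 0.92% were. With the block H2BC5 and H2BC12 joined the brighter genes that were higher in both pools. On polysomes H2AC14 joined the brighter lower genes, and H1-5 and H4C5 the dimmer lower genes. Dim probe sets understate changes, and this comparison by level is a description.

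Probe sets shared by several histone genes cannot be assigned to one gene. There are 20, and in a fit over all probe sets 4 passed on polysomes (1 higher and 3 lower, where 8.2% of all probe sets passed) and 1 in the cytosol (lower, where 10.1% passed). Several of them list the same 14 H4 genes and gave unlike results. The brightest of these read 11.30, 11.00, 10.94 and 11.12 in polysome PP242 arrays, against 12.10, 11.93, 11.97 and 11.92 in polysome vehicle arrays. In cytosolic RNA it read 10.94, 11.02, 10.43 and 11.03 with PP242, against 12.01, 11.79, 11.76 and 11.73 with vehicle. The groups lay apart in both pools, with -0.89 ± 0.13 (adjusted p = 2.00e-04) and -0.97 ± 0.13 (adjusted p = 8.41e-05). Another set of these 14 H4 genes passed on polysomes alone, at -0.565 ± 0.17 (adjusted p = 0.0439). The remaining sets of these H4 genes passed in neither pool. The brighter, with a mean of 7.68 in polysome PP242 arrays, showed -0.0275 ± 0.20 on polysomes and 0.0375 ± 0.20 in the cytosol. The dimmer ones showed -0.0675 ± 0.16 and 0.29 ± 0.16, and -0.0825 ± 0.10 and 0.075 ± 0.10. Also passing on polysomes was a pair of sets that list the same 6 H2A genes, one at 0.86 ± 0.24 (0.0307) and the other at -0.42 ± 0.115 (0.029). These readings were opposite in sign.

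Whether PP242 acted differently on polysome and cytosolic histone RNA was tested as the difference of both effects. None of the 43 genes passed, and 0.0% of all 19775 genes did, by limma with or without the block. At an unadjusted p under 0.05 the count was 5 of 43 (H4C9, H4C5, H1-2, H2BC15 and H2BC3) and 1750 of 19775. H4C9 had the smallest p, with 5.41, 5.35, 5.43 and 5.61 in polysome PP242 arrays, against 5.72, 5.89, 5.60 and 5.71 in polysome vehicle arrays. Its cytosolic signal went the other way, with 6.68, 6.83, 6.36 and 7.09 with PP242, against 6.27, 6.39, 6.37 and 6.30 with vehicle. The difference of its effects was -0.69 ± 0.18 (unadjusted p = 0.00141, adjusted p = 0.558).

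Polysome over cytosolic signal asks which histone RNAs were on many ribosomes, and was taken after centring each array on its median gene because the pools lie on different scales. With PP242, 8 histone genes were higher on polysomes (against 34.7% of all genes) and 13 lower (against 17.5%), together 48.8%, where 52.2% of all genes passed. With vehicle 13 were higher (against 36.9%) and 7 lower (against 15.4%), together 46.5%, where 52.3% of all genes passed. With the replicate block 12 were higher (against 38.4% of all genes) and 15 lower (against 19.8%) with PP242, and 16 higher (against 40.4%) and 7 lower (against 17.7%) with vehicle. The genes added were H2AC6, H2AC14, H2AC17 and H2AC25 on the higher side and H2BC6 and H3C11 on the lower side with PP242, and H2AC6, H2BC11 and H4C8 on the higher side with vehicle. The median histone gene stood at -0.105 with PP242 and 0.01 with vehicle, and the median of all genes at 0.14 and 0.17. Under quantile normalization between all arrays that median of all genes was 0.00 and 0.02, with 4555 genes higher and 4630 lower in place of 6857 and 3467 with PP242, and 4656 and 4257 in place of 7292 and 3055 with vehicle.

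H2B genes supplied most of the low ratios, with 7 of 13 lower with PP242 and 5 of 13 with vehicle. H2BC4 showed -0.90 ± 0.11 with PP242 and -0.93 ± 0.11 with vehicle, and H2BC21 -0.80 ± 0.25 and -0.9975 ± 0.25, both below the median gene. The PP242 value of H2BC21 was not called without replicate 1 (-0.59, adjusted p = 0.119) or 2 (-0.57, adjusted p = 0.102), and was -0.13 in numbers 3 and 4 alone. H2BC15 showed -0.72 ± 0.16 and -1.235 ± 0.16, H2BC9 -0.66 ± 0.21 and -0.68 ± 0.21, H2BC14 -0.54 ± 0.12 and -0.54 ± 0.12, and the H1 gene H1-1 -0.64 ± 0.11 and -0.60 ± 0.11. Some of these polysome signals were low on the scale, at 2.73 with PP242 and 2.84 with vehicle in H2BC14 and 3.28 and 3.25 in H2BC4. H4C9 stood at -0.97 ± 0.12 with PP242 and at -0.27 ± 0.12 with vehicle, where it did not pass. On the other side H4C11 stood at 0.625 ± 0.17 with PP242 and 0.63 ± 0.17 with vehicle. It was not called under quantile normalization (0.33, adjusted p = 0.135, and 0.31, adjusted p = 0.162) or cyclic loess (0.32, adjusted p = 0.121, and 0.30, adjusted p = 0.146). H4C4 stood at 0.565 ± 0.14 and 0.56 ± 0.14, and H2BC1 at 0.53 ± 0.08 and 0.735 ± 0.08 although its signal is at the bottom of the scale. H3C8 stood at 0.535 ± 0.12 and 0.48 ± 0.12 and H1-3 at 0.57 ± 0.13 and 0.45 ± 0.13. H3C6 passed with PP242 (0.54 ± 0.13), and H2AC25 (0.66 ± 0.20), H1-2 (0.565 ± 0.18) and H2AC14 (0.48 ± 0.15) passed with vehicle. None of these 3 vehicle calls held under quantile normalization (H2AC25 0.36, H1-2 0.33 and H2AC14 0.17), under cyclic loess (0.24, 0.37 and 0.19) or without replicate 1 (adjusted p = 0.0561, 0.112 and 0.0759). H2AC25 and H1-2 were also lost without replicate 4 (adjusted p = 0.0581 and 0.0833) and H2AC14 without replicate 2 (0.0511). H1-3 with vehicle was lost without replicate 1 (0.0587) or 4 (0.0589). Genes below the median gene in every group were then left out, and arrays were centred on the median of the genes kept. In that setting no histone gene was called higher in either condition.

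Lists of genes that act around histone supply were counted in the same way. They were chosen with earlier results of these data known, so the counts only describe them. Over all genes 6.81% rose and 6.55% fell on polysomes, and 8.54% and 7.91% in the cytosol. With the block it was 10.6% and 9.72%, and 13.9% and 11.0%. Among all genes at or above the median gene, without the block, it was 10.6% and 12.2%, and 12.9% and 14.1%. All 14 S-phase genes fell in both pools, with a median of -1.49 on polysomes and -1.24 in the cytosol. The sliding clamp PCNA showed -1.89 ± 0.16 and -2.47 ± 0.16, the helicase loader CDC6 -2.675 ± 0.19 and -2.34 ± 0.19, the ribonucleotide reductase subunit RRM2 -1.935 ± 0.14 and -1.55 ± 0.14, and the thymidylate synthase TYMS -1.55 ± 0.11 and -1.61 ± 0.11. Of 9 histone chaperones and partners 8 fell in each pool. The histone acetyltransferase HAT1 showed -1.57 ± 0.13 and -1.85 ± 0.13, the assembly factor subunits CHAF1A -1.65 ± 0.15 and -1.36 ± 0.15 and CHAF1B -1.185 ± 0.13 and -0.78 ± 0.13, and the H3-H4 chaperone ASF1B -1.44 ± 0.14 and -1.26 ± 0.14.

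SLBP read 9.07, 9.26, 8.78 and 9.23 in polysome PP242 arrays, against 9.95, 10.03, 9.88 and 10.18 in polysome vehicle arrays. In cytosolic RNA it read 9.08, 8.62, 8.87 and 8.43 with PP242, against 9.75, 9.67, 9.84 and 9.82 with vehicle. The groups lay apart in both pools, with a fall of -0.925 ± 0.14 (adjusted p = 1.33e-04) on polysomes and -1.02 ± 0.14 (adjusted p = 4.66e-05) in the cytosol. Of the 11 genes of histone mRNA 3′ processing 5 fell in each pool and none rose, and with the block 6 fell on polysomes (with LSM11) and 7 in the cytosol (with LSM10 and SRRT). Among them the cap-binding subunit NCBP1 showed -0.77 ± 0.12 and -0.575 ± 0.12 and the cleavage nuclease CPSF3 -0.51 ± 0.10 and -0.41 ± 0.10, and its partner CPSF2 fell in the cytosol (-0.985 ± 0.18).

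Of 6 measured genes of histone gene transcription 3 fell on polysomes, and 4 fell and 1 rose in the cytosol. The S-phase cyclin CCNE2 showed -2.155 ± 0.19 and -2.375 ± 0.19, its kinase CDK2 -1.82 ± 0.13 and -1.675 ± 0.13, and CASP8AP2, a protein of histone locus bodies, -0.82 ± 0.15 and -1.005 ± 0.15. NPAT, the coactivator of histone genes that CDK2 phosphorylates, fell in the cytosol (-0.875 ± 0.17), and HINFP, an activator of H4 genes, rose there (0.395 ± 0.12). Of 9 genes of histone mRNA translation and decay 2 fell in each pool and 1 rose in the cytosol. Of all genes at or above the median gene 12.2% fell on polysomes, and 14.1% fell and 12.9% rose in the cytosol. The exonuclease ERI1, which trims the histone stem-loop, showed -0.715 ± 0.16 and -0.62 ± 0.16, LSM4, of the decay-activating ring, -0.665 ± 0.13 and -0.50 ± 0.13, and the translation initiation factor CTIF rose in the cytosol (0.515 ± 0.16). With the block 3 fell and 2 rose in each pool. MIF4GD, which binds SLBP and aids histone mRNA translation, rose in both only then, at 0.585 ± 0.23 (adjusted p = 1.94e-04 with the block and 0.104 without) and 0.60 ± 0.23 (1.59e-04 with the block and 0.0793 without).

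The replication-independent histones, whose mRNAs mostly carry poly(A) tails, gave 4 falls of 9 measured genes on polysomes and 3 in the cytosol, and no rise. H2AZ1, a variant found at promoters, read 11.88, 11.82, 11.55 and 11.90 in polysome PP242 arrays, against 12.92, 12.74, 12.62 and 13.00 in polysome vehicle arrays. It showed -1.03 ± 0.12 on polysomes and -1.41 ± 0.12 in the cytosol, and the damage-response variant H2AX -0.96 ± 0.13 and -1.0 ± 0.13. The centromeric CENPA showed -0.79 ± 0.19 and -0.87 ± 0.19, and MACROH2A1 fell on polysomes (-0.64 ± 0.13). With the block 6 of the 9 fell on polysomes. Of 11 measured genes of general cleavage and polyadenylation 2 fell on polysomes and 3 in the cytosol, with CLP1 at -0.71 ± 0.14 and -0.48 ± 0.14, CSTF1 at -0.53 ± 0.15 on polysomes, and NUDT21 at -1.58 ± 0.27 and FIP1L1 at -0.76 ± 0.23 in the cytosol. With the block 3 of them fell on polysomes (with CPSF4), and the poly(A)-binding PABPN1 rose on polysomes (0.525 ± 0.33, adjusted p = 0.0196). In the cytosol 4 fell with the block (with PAPOLA) and 0 rose.

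**Figure D4:**
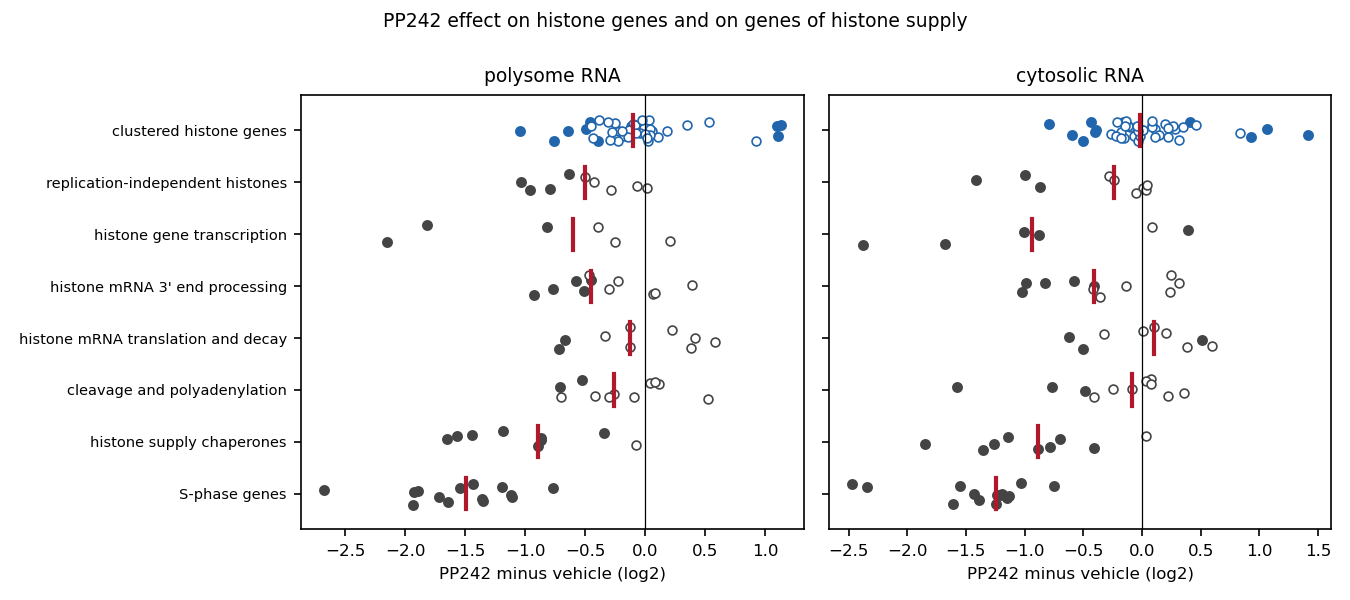
Log2 difference of PP242 minus vehicle (x axis) of each histone gene and of each gene in 7 related lists (y axis), in polysome RNA (left) and cytosolic RNA (right), n = 4 arrays per group. Filled points passed an adjusted p under 0.05 in the fit without the replicate block, open points did not, and red bars are medians. Histone genes lie on both sides of 0 with a median of -0.105 on polysomes and -0.015 in the cytosol, while all 14 S-phase genes lie below 0. The lists were chosen with earlier results of these data known.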

How the data were processed

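Microarray values were analysed for MIA PaCa-2 cells, with 4 arrays in each of 4 groups named by the sample titles. The deposited values are log2 intensities of 54613 probe sets, summarized by RMA per the submitters' processing notes. The label protocols name polysome RNA from a 10% to 50% sucrose gradient. Quantiles of arrays differed by a median of 0.08 within the cytosolic pool, 0.07 within the polysome pool and 0.41 over all arrays, so the pools look normalized apart. Of the probe sets 41091 list 1 gene. The one with the highest mean over all arrays stood for each of 19775 genes.

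Tests used limma 3.58.1 in R 4.3.3, with 1 mean per group over 16 arrays, eBayes with an intensity trend, two-sided p-values and Benjamini-Hochberg adjustment over all genes at 0.05. Errors after ± are standard errors of the contrast, from the fit without the block. The steps were tested on simulated data. Same-numbered arrays of the compared groups deviated together in 16 of 16 pairs (correlations of deviations from group means of 0.164 to 0.510). In 13 of these 16 pairs the array of the same number was the best match. The replicate number was therefore taken as pairing arrays in a second fit, with the number as a block. The main calls, the filled points of the figures and the calls lost without a replicate come from the fit without the block. For the PP242 effects and ratios the blocked count, or the genes it changed, is printed where it differs.

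The members and lists were chosen with earlier results of these data known. Named genes are up to 6 rises and 6 falls per contrast, the brightest gene of each family, up to 4 genes per list and SLBP. H2BC5, H1-5, H2AC14, H4C5, H2BC3, H2BC6, H2AC17, H2BC11, H3C11, H4C8, MIF4GD, PABPN1 and the list genes named beside a blocked count were named after their values were seen. The pseudogenes H2AC5P and H4C10P, and H2BC12L, which lies outside the clusters, were left out of the counts. Promoter sequences are from RefSeq.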

Additional observations from a re-analysis of the deposited data

Results flagged for a closer look

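In 2 of the 88 groups of 4 arrays checked over 22 histone genes, 1 array lay far from the others, where chance gives about 1 in 20 groups. Both are cytosolic PP242 array 3. H2AC14 read 6.97 there, and 7.78 to 7.86 in the other cytosolic PP242 arrays. H2BC1 read 2.4 there, and 2.5 to 2.51 in the others, a gap of small size at the bottom of the scale. H2AC14 passed in neither pool without the block, and on polysomes with it (adjusted p = 0.0156).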

How the results depend on the processing

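No called value of a named histone gene changed sign under the alternatives run. Of 907 values of named genes that did not pass, 80 changed sign, as did 8 of 84 medians over the histone genes, for the cytosolic PP242 effect, the difference of effects and the ratios with PP242 and with vehicle. Leaving out 1 replicate number gave 3 polysome rises in each case, 2 to 5 polysome falls (median -0.16 to -0.08), 2 to 5 cytosolic rises, 2 to 3 cytosolic falls (median -0.05 to 0.07), 7 to 8 higher and 9 to 14 lower ratios with PP242 (median -0.12 to -0.0267), 7 to 13 higher ratios with vehicle, 7 lower in each case (median -0.04 to 0.05), and 0 calls for the difference of effects. Over all 19775 genes, leaving out 1 number gave 811 to 974 polysome rises and 774 to 1034 falls. It gave 658 to 1785 cytosolic rises and 885 to 1534 falls. All-gene ratios were higher in 5688 to 6097 and lower in 2646 to 3043 with PP242, and 6214 to 6394 and 2360 to 2738 with vehicle. With the replicate block, or with array weights, 5 histone genes were higher on polysomes (2096 and 1926 of all genes), and the block changed no direction. Plain probe sets left 1 polysome rise and 5 higher ratios with PP242 (984 and 5572 of 16782 genes). They leave out H2AC6, H2BC21 and H3C2, among others. Leaving out dim genes kept 13 histone genes. It left 1 fall in each pool, with medians of -0.0275 on polysomes and 0.22 in the cytosol. Ratios were higher in 0 and lower in 4 with PP242 (median -0.23), and 0 and 2 with vehicle. For the ratios each array was then centred on the median of the genes kept. Ratios of genes that stayed in also became smaller, as in H2AC25 with vehicle (0.38 in place of 0.66) and H4C11 with vehicle (0.35 in place of 0.63). Of the 10712 genes kept in that setting, 1478 fell on polysomes and 1648 in the cytosol. Their ratios were higher in 2795 and lower in 2925 with PP242, and 3242 and 2890 with vehicle. Fitting the arrays of one pool gave 2 cytosolic rises and 2 falls (965 and 1104 over all genes). Cyclic loess moved the median ratio with PP242 to -0.17. Settings chosen after seeing the data moved other values. Numbers 1 and 2 alone gave 5 polysome rises and 3 falls (median -0.165) and 8 cytosolic rises and 0 falls (median 0.095). Over all genes they gave 963 polysome rises and 1043 falls, and 1182 and 1267 in the cytosol. Numbers 3 and 4 alone gave 2 polysome falls, 2 cytosolic rises and 3 falls, 5 higher and 5 lower ratios with PP242 (median -0.01) and 5 higher with vehicle. Over all genes they gave 484 polysome falls, 455 cytosolic rises and 603 cytosolic falls. All-gene ratios were then higher in 4536 and lower in 1946 with PP242, and higher in 5142 with vehicle. Without the 2 noisiest cytosolic PP242 arrays 2 cytosolic rises remained (672 over all genes) and the median ratio with PP242 was 0.015. The cause was not tested. Signals near the bottom of the scale limit the size of differences that can be seen.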

Other observations

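The symbols left out of the counts gave few calls. H2BC12L, an H2B gene on another chromosome, showed 0.14 ± 0.29 on polysomes and 0.47 ± 0.29 in the cytosol, and the cytosolic value passed with the replicate block alone (adjusted p = 0.011). The pseudogene H2AC5P showed 0.07 ± 0.15 on polysomes and -0.195 ± 0.15 in the cytosol and passed in neither pool. Its polysome over cytosolic signal was lower than that of the median gene with PP242 (-0.49 ± 0.15) and with vehicle (-0.74 ± 0.15).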
